A study of Homo sapiens with 4 samples.

Results

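LINC genes are long intergenic noncoding RNA genes that carry a serial number in place of a functional name. Here they were all genes whose symbol is LINC followed by digits and whose expected counts summed to at least 100 over the 4 libraries of human Ishikawa cells. Of 58522 genes in the count table, 2229 had such a symbol, 695 of these had any count, and 142 reached the minimum. The summed count over both groups chose the 142 genes, so their abundance is a description and not a result. All 142 passed the filter on low counts that the test used, and each of them had counts in every library, with 9.55 as the lowest value. GENCODE release 44 annotated 133 of them as lncRNA and 9 as transcribed pseudogenes. They were chosen from the 228 LINC genes that were tested, and the other 86 had a summed count under 100.

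Long noncoding RNAs are transcripts that do not code for a protein of notable length, and most are spliced and polyadenylated like mRNAs. A LINC number is given by the human nomenclature committee when the gene lies between protein-coding genes and has no established function, so most of these RNAs are known by position and not by role. Such RNAs are usually less abundant than mRNAs and more restricted to certain cell types. Some act in the nucleus on nearby genes or on chromatin complexes, others in the cytoplasm on mRNAs or microRNAs, and for many no function is known. CDYL (chromodomain Y like) is a chromatin reader of methylated histone H3 that works as a transcriptional corepressor.

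RNA-seq was performed on Ishikawa cells, an established line from a human endometrial adenocarcinoma that is used as a model of endometrial epithelium. Cells in the CDYL-sh group received a short hairpin RNA against CDYL (2 libraries), and cells in the control group received a negative control hairpin (2 libraries). The CDYL hairpin was cloned into a plasmid with a U6 promoter, a ZsGreen reporter and puromycin resistance, and transduced cells were selected with puromycin. The vector of the control hairpin is not given in the sources used here. More than 1 CDYL hairpin was used in the study. The CDYL-sh libraries, numbered here as replicates, are titled CDYL_sh1 and CDYL_sh2, and the study gives such names to hairpins as well. Whether the titles name hairpins or replicates is not given in the sources used here. Differences between the 2 CDYL-sh libraries thus cannot be told apart from differences between hairpins. Neither is it given if replicate libraries were grown as separate cultures, so p-values measure only the spread between these libraries. Total counts were between 22341852 and 27451007 in the CDYL-sh libraries and between 26981051 and 27688447 in the control libraries. CDYL itself had 11.4 and 9.70 CPM (counts scaled to the library size, with TMM factors) in the CDYL-sh libraries, against 50.4 and 53.0 CPM in the control libraries. The 2 groups did not overlap, and the log2 fold change of CDYL was -2.28 ± 0.13 (SE, adjusted p = 4.26e-09). Every p-value of a gene was from edgeR's quasi-likelihood test with Benjamini-Hochberg adjustment over 16158 genes, and a gene was called when its adjusted p was under 0.05. The defining markers of epithelium (5 of 5) and of the Müllerian tract (3 of 3) were present. The summed FPKM of the Müllerian markers PAX8, MSX1 and SOX17 was between 351 and 375 in CDYL-sh and between 494 and 522 in control libraries, and MSX1 and SOX17 were called lower (log2 fold changes of -0.81 and -0.72). Among the epithelial markers, whose sums overlapped between groups, KRT19 was called higher and KRT18 lower. Of 4 stromal markers, DCN and COL3A1 were at 0 in every library, and COL1A1 was called lower. Their sum was between 1.75 and 3.22 FPKM in CDYL-sh and between 4.20 and 4.42 FPKM in control libraries. The T cell marker CD3E was at 0 in every library, and the sum of the 3 leukocyte markers, nearly all of it CD68, was between 11.5 and 13.6 FPKM in CDYL-sh and between 4.97 and 7.30 FPKM in control libraries. That of the 3 endothelial markers was between 1.75 and 1.86 FPKM in CDYL-sh and between 0.60 and 0.83 FPKM in control libraries. The part of these in the changes of LINC genes was not tested.

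The promoters of 5 called LINC genes are shown, because these genes stayed called without each library in turn and had an entry among the RefSeq promoters. Each line gives 300 bases of GRCh38.p14, 5′ to 3′ on the strand of the gene, most of them before the RefSeq start and the last 50 after it. Capitals mark a CCAAT box (CCAAT), a GC box (GGGCGG), an E-box (CACGTG) or an AP-1 site (TGANTCA), searched on both strands. LINC00511, LINC01569 and LINC03040 were higher in CDYL-sh libraries, and LINC02009 and LINC02987 were lower.
LINC00511 (chr17:72640423-72640722, minus strand): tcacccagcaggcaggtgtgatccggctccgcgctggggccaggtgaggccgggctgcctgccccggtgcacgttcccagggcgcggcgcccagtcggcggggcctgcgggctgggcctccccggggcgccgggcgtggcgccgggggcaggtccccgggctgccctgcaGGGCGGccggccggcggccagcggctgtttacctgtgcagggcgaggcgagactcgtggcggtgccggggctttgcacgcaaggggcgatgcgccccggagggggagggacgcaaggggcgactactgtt
LINC01569 (chr16:4253740-4254039, minus strand): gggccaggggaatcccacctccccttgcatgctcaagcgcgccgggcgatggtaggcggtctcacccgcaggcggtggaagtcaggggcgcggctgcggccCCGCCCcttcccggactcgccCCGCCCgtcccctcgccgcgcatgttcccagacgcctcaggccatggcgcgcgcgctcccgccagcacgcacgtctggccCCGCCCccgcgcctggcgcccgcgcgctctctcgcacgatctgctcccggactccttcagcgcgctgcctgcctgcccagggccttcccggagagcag
LINC03040 (chr6:44000335-44000634, plus strand): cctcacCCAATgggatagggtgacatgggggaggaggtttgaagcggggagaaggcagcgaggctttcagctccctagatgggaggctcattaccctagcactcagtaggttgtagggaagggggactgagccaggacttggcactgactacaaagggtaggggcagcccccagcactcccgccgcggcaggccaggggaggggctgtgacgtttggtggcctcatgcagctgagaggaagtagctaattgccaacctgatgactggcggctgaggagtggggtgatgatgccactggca
LINC02009 (chr3:46423618-46423917, minus strand): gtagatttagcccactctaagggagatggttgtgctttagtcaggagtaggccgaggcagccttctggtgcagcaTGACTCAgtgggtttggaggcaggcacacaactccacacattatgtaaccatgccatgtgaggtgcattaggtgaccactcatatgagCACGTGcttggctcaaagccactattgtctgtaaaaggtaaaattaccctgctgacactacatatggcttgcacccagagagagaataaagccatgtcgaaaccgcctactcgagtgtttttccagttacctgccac
LINC02987 (chr19:27793181-27793480, plus strand): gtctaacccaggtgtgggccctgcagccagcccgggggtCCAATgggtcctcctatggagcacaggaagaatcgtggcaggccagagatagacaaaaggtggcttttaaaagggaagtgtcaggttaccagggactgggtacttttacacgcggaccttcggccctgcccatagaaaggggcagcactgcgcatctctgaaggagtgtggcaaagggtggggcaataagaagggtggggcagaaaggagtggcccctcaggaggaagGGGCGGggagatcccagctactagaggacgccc

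Promoter entries were found for 89 of the 142 LINC genes. A CCAAT box was present in 49.4% of these 89 promoters, against 34.6% of all 35116 RefSeq promoters of the same length and 36.8% of the promoters of expressed genes. A GC box was present in 47.2% of the LINC promoters, against 45.0% of all promoters and 71.4% of those of expressed genes. GC boxes were thus about as frequent as in promoters in general, and less frequent than in those of expressed genes. The AP-1 letters were found in 14.6% of LINC promoters, in 7.71% of all promoters and in 4.28% of those of expressed genes. A TATA box (TATAAA) was found in 16.9% of LINC promoters, in 11.5% of all promoters and in 5.26% of those of expressed genes. The LINC promoters held a median of 11 CpG, against 14 in all promoters and 27 in those of expressed genes. Among the promoters shown, that of LINC01569 had the most CpG with 39, that of LINC00511 had 35 and that of LINC02009 had 5. These matches describe letters in a window, and no test was made on them.

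The LINC genes were expressed at low levels relative to the other genes. Their median FPKM, a level per length of transcript, was 3.20, against 9.78 for all tested genes with a summed count of at least 100. Their median GC content was 47.8%, their longest transcript had a median length of 2540 bases, and they had a median of 5 exons after overlapping exons were merged. The nearest protein-coding start lay at a median distance of 53.3 kb, and 17 of the 142 genes had one within 5 kb. Of the 142 genes, 76 lay on the same strand as the nearest protein-coding gene, 47 were divergent from it and 19 were convergent. LINC00665, on chromosome 19, had the highest level per length, with a mean of 80.6 FPKM over the 4 libraries. LINC00958, also named BLACAT2 and first described in bladder cancer, followed with 53.4 FPKM. The range went down to 0.12 FPKM.

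Of the 142 LINC genes, 25 (17.6%) were called between CDYL-sh and control libraries, 11 higher and 14 lower. Among all 16158 genes tested, 25.7% were called, 13.6% higher and 12.1% lower. Among the 14094 tested genes that also had at least 100 counts, 28.1% were called. The share of LINC genes was under both, and it moved with abundance. Of the 65 LINC genes with a summed count of 100 to under 300, 6 were called (9.23%), against 13.1% of all genes of that abundance. In the class from 300 to under 1000, 9 of 44 LINC genes were called (20.5%), against 24.5% of all genes. Between 1000 and under 3000 counts, 7 of 23 were called (30.4%), against 32.5%. At 3000 counts or more, 3 of 10 LINC genes were called (30.0%), against 31.9% of all genes. In each class the share of LINC genes lay a few percentage points under that of all genes, and the difference was not tested. The 142 genes had a median log2 fold change of 0.04, against 0.01 for all genes tested, with 75 LINC genes above 0 and 67 below 0. Both CDYL-sh libraries lay above both control libraries for 45 LINC genes (32.6% of all genes tested did so), and below both for 35 (31.8% of all genes tested). A further 62 LINC genes had overlapping groups.

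**Figure D1:**
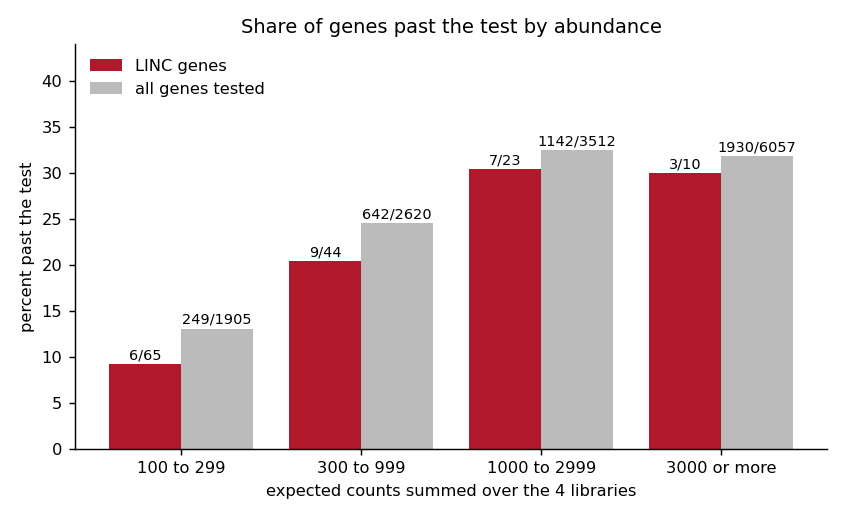
Percent of genes called (edgeR, adjusted p under 0.05) among LINC genes (red) and all genes tested (grey), in 4 classes of the expected count summed over the 4 libraries, with called over total above each bar. The LINC share was 9.23% in the lowest class and 30.0% in the highest. It stood a little under the share of all genes in every class, with only 23 and 10 LINC genes in the upper 2 classes.

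**Figure D2:**
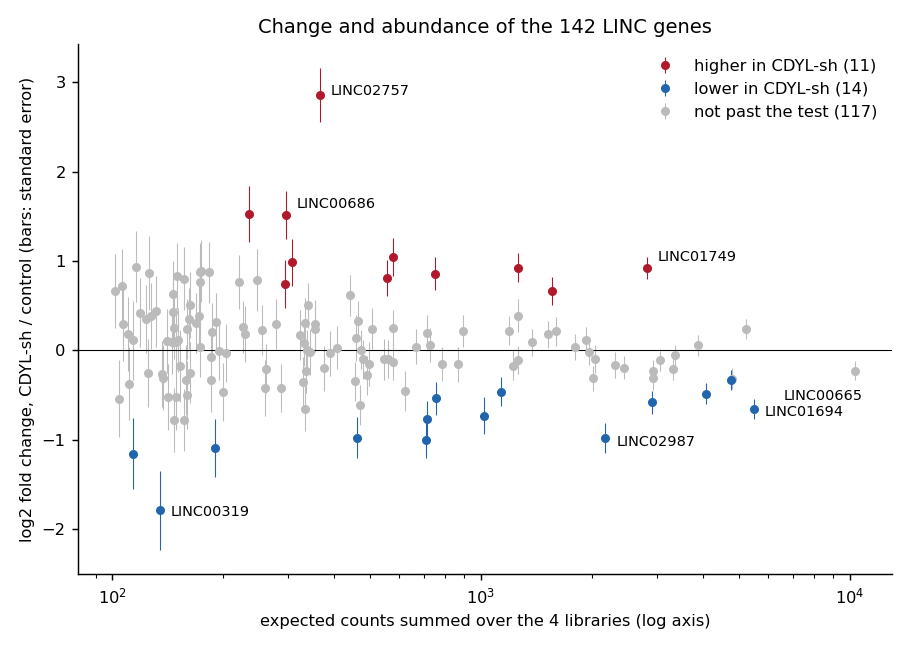
Log2 fold change (CDYL-sh over control, bars are 1 SE) of each of the 142 LINC genes against its summed expected count on a log axis, with called genes in red (higher) and blue (lower). LINC02757 stood highest at 2.86 and LINC00319 lowest at -1.79, and the spread of the uncalled genes was wider at low counts.

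LINC02757 (ENSG00000255363, chr11:76607853-76630465, minus strand) had the highest log2 fold change, but it reached the abundance minimum only through its level in CDYL-sh libraries, so its direction was partly fixed by the choice of genes. It had 7.36 and 5.26 CPM in CDYL-sh libraries, against 1.01 and 0.60 CPM in control libraries. Both CDYL-sh libraries were far above both controls, a 7.25-fold difference (log2 2.86 ± 0.30, adjusted p = 4.53e-06). Part of its exons, 262 bases, lies within exons of another unnamed gene on the same strand, so some reads could belong to either.

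LINC01749 was the most abundant by count of the LINC genes that rose, on chromosome 20 (chr20:63009383-63085071, plus strand). It had 33.8 and 38.2 CPM in CDYL-sh libraries, against 18.6 and 19.3 CPM in control libraries. The groups were well apart, with a log2 fold change of 0.92 ± 0.13 (adjusted p = 5.66e-05). Its start lies 2348 bases from that of BHLHE23, a basic helix-loop-helix transcription factor gene with too few counts to test.

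LINC00511, a long gene that has been described in many carcinomas, spans chr17:72290091-72640472 on the minus strand. Its levels were 16.1 and 16.1 CPM in CDYL-sh libraries, against 7.72 and 9.16 CPM in control libraries. The CDYL-sh libraries were nearly equal and both above the controls, and the log2 fold change was 0.92 ± 0.16 (adjusted p = 0.000475).

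LINC00686 lies on chromosome 20 as well (chr20:62695024-62700480, minus strand), 8356 bases from the start of the neurotensin receptor gene NTSR1. It had 4.07 and 4.62 CPM in CDYL-sh libraries, against 1.47 and 1.47 CPM in control libraries. The log2 fold change was 1.51 ± 0.27 (adjusted p = 0.000533), with no overlap between the groups. LINC01559 (chr12:13371089-13387167, minus strand) had 3.43 and 3.44 CPM in CDYL-sh libraries, against 0.90 and 1.39 CPM in control libraries. It too was above control in both CDYL-sh libraries, with a log2 fold change of 1.53 ± 0.31 (adjusted p = 0.00157).

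LINC03040 (chr6:44000580-44007612, plus strand) had 8.07 and 6.98 CPM in CDYL-sh libraries, against 3.98 and 3.24 CPM in control libraries (log2 fold change 1.04 ± 0.21, adjusted p = 0.00152). Its exons overlap those of the lncRNA gene SCIRT on the opposite strand by 277 bases, and although the study's methods name an orientation mode for the alignment, whether the counting used strand is not given in the sources used here. LINC01569 (chr16:4243943-4253847, minus strand) had 9.10 and 9.74 CPM in CDYL-sh libraries, against 4.99 and 5.35 CPM in control libraries (log2 fold change 0.86 ± 0.19, adjusted p = 0.00258). LINC01619 (chr12:91984976-92142914, minus strand) had 18.5 and 18.3 CPM in CDYL-sh libraries, against 10.2 and 13.1 CPM in control libraries (log2 fold change 0.66 ± 0.16, adjusted p = 0.00487). Its exons share 503 bases with BTG1, an antiproliferative gene on the same strand that was listed at 0 in every library, so reads of BTG1 may stand under LINC01619. In all of these genes both CDYL-sh libraries lay above both controls.

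The other LINC genes that rose were LINC02128, LINC02972 and LINC01602, with log2 fold changes of 0.81, 0.98 and 0.74. LINC02128 had 6.82 and 6.96 CPM in CDYL-sh libraries, against 3.73 and 4.07 CPM in control libraries. LINC02972 had 3.88 and 4.10 CPM in CDYL-sh libraries, against 1.86 and 2.11 CPM in control libraries. Each of the 3 lost its call when at least 1 library was left out. LINC01602 was the closest to the threshold (adjusted p = 0.0488), and it was not called once GC content and length were included (adjusted p = 0.116).

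Among the LINC genes that fell, LINC02987 had the smallest adjusted p. It spans chr19:27793431-27984984 on the plus strand and had 11.0 and 16.9 CPM in CDYL-sh libraries, against 28.6 and 26.3 CPM in control libraries. The CDYL-sh libraries differed from each other more than the controls did, yet both were below them (log2 fold change -0.99 ± 0.17, adjusted p = 0.000373). Its exons overlap those of other genes by 1930 bases, counted for each gene and summed. Among these genes are 3 unnamed genes on the same strand and the pseudogene SLC25A1P5, so the counts of LINC02987 are uncertain. It also overlaps LINC00662 on the opposite strand, by 331 bases of LINC00662. LINC00662 had 9.07 and 9.06 CPM in CDYL-sh libraries, against 12.7 and 12.3 CPM in control libraries (log2 fold change -0.46 ± 0.16, adjusted p = 0.0438). Both genes at this locus were thus called lower, but LINC00662 was not called with DESeq2 in place of edgeR (adjusted p = 0.0766). Reads in the shared bases cannot be told apart without strand.

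LINC01694, the second most abundant LINC gene by count, spans chr21:45590771-45603088 on the plus strand. It had 42.8 and 38.0 CPM in CDYL-sh libraries, against 65.9 and 61.6 CPM in control libraries. Both CDYL-sh libraries were well below the controls (log2 fold change -0.66 ± 0.11, adjusted p = 0.000463). LINC02009 (chr3:46416524-46423591, minus strand), whose exons overlap no other gene, had 4.28 and 4.58 CPM in CDYL-sh libraries, against 9.44 and 8.48 CPM in control libraries. Its log2 fold change was -1.01 ± 0.19 (adjusted p = 0.00101), again with no overlap between groups. LINC00680, annotated as a transcribed pseudogene on chromosome 6, had 3.03 and 2.76 CPM in CDYL-sh libraries, against 6.32 and 5.28 CPM in control libraries (log2 fold change -0.98 ± 0.23, adjusted p = 0.00414). Its symbol has more than 1 identifier and its exons overlap those of another gene on the same strand, so the split of reads between them is uncertain.

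LINC01224, on chromosome 19, had 23.7 and 20.2 CPM in CDYL-sh libraries, against 33.3 and 32.6 CPM in control libraries (log2 fold change -0.58 ± 0.13, adjusted p = 0.00288). LINC00839, on chromosome 10, had 30.6 and 34.1 CPM in CDYL-sh libraries, against 45.0 and 45.6 CPM in control libraries (log2 fold change -0.49 ± 0.12, adjusted p = 0.00556). LINC00963, first described in prostate cancer cells, had 39.2 and 41.4 CPM in CDYL-sh libraries, against 50.8 and 50.5 CPM in control libraries. Its fall was the smallest among the called genes (log2 fold change -0.33 ± 0.11, adjusted p = 0.038). Unlike in CPM, its groups overlapped in FPKM, with 16.2 and 12.0 in CDYL-sh libraries and 15.4 and 19.2 in control libraries.

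LINC00319 (chr21:43446601-43453902, plus strand) had the lowest log2 fold change, -1.79 ± 0.44 (adjusted p = 0.00635), at low counts. It reached the abundance minimum only through its level in control libraries. Its expected counts were 9.55 and 16.4 in CDYL-sh libraries, against 36.7 and 72.0 in control libraries. The groups did not overlap, but the control libraries were further apart from each other than the nearest CDYL-sh and control libraries were. LINC00938 is a gene of a single exon that starts 1846 bases from ARID2, a subunit of a chromatin remodelling complex, and is divergent from it. It had 8.89 and 5.39 CPM in CDYL-sh libraries, against 12.9 and 11.1 CPM in control libraries (log2 fold change -0.73 ± 0.21, adjusted p = 0.0146). The remaining LINC genes that fell were LINC02980, LINC00174, LINC01139 and LINC03067, with log2 fold changes of -0.77, -1.10, -0.54 and -1.15. LINC00174 shares 1511 bases of exon, counted for each gene and summed, with pseudogenes and unnamed genes on its own strand, so its counts are uncertain.

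**Figure D3:**
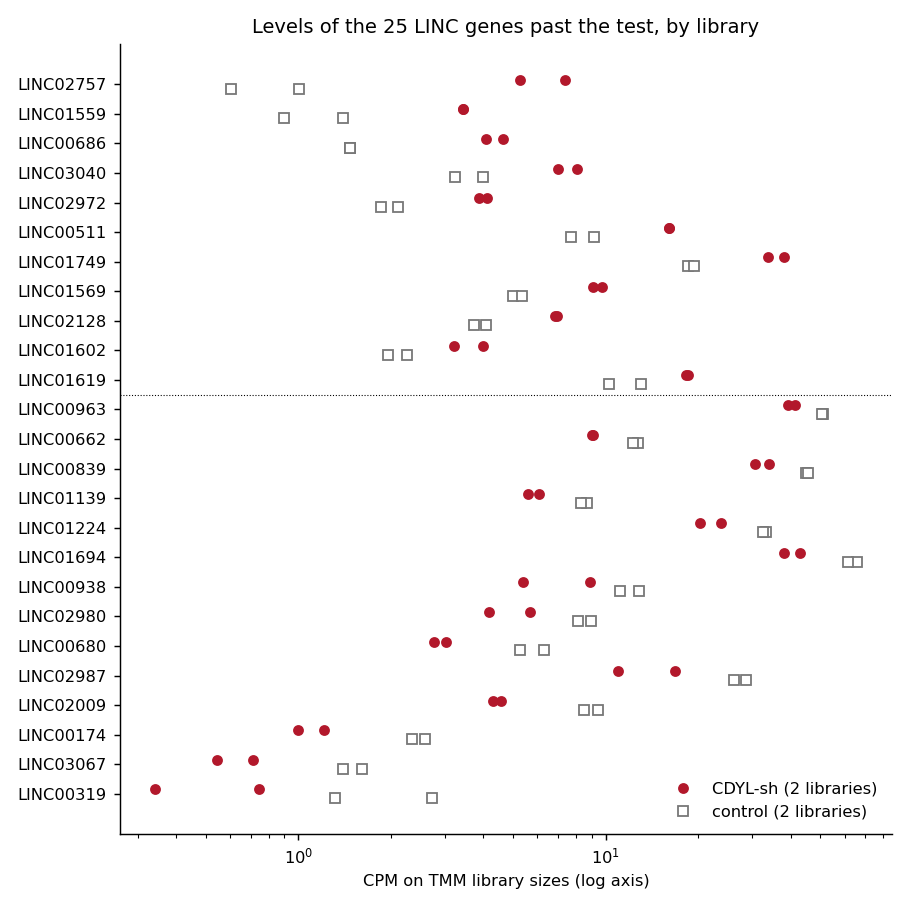
Level of each of the 25 called LINC genes in every library, in CPM on a log axis, ordered by log2 fold change, with CDYL-sh libraries as red circles and control libraries as open squares. The 2 groups do not overlap for any of the 25 genes, which is close to given for genes called with 2 libraries per group. Levels run from 0.34 CPM (LINC00319 in CDYL-sh) to 65.9 CPM (LINC01694 in control).

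Each library was left out in turn. Of the 25 calls, 12 were kept every time, 8 of them higher and 4 lower. These were LINC02757, LINC01749, LINC00511, LINC00686, LINC03040, LINC01559, LINC01569 and LINC01619 among the genes that rose, and LINC02987, LINC01694, LINC02009 and LINC00680 among those that fell. The other 13 were lost without at least 1 library, and without CDYL-sh replicate 2 only 14 LINC genes were called in all. All 25 kept their direction in each of the 17 other settings tried. Their groups did not overlap in CPM, so leaving out 1 library could hardly have reversed a direction. In limma on log2(FPKM + 1), 0 LINC genes passed after adjustment, and 41 had an unadjusted p under 0.05.

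**Figure D4:**
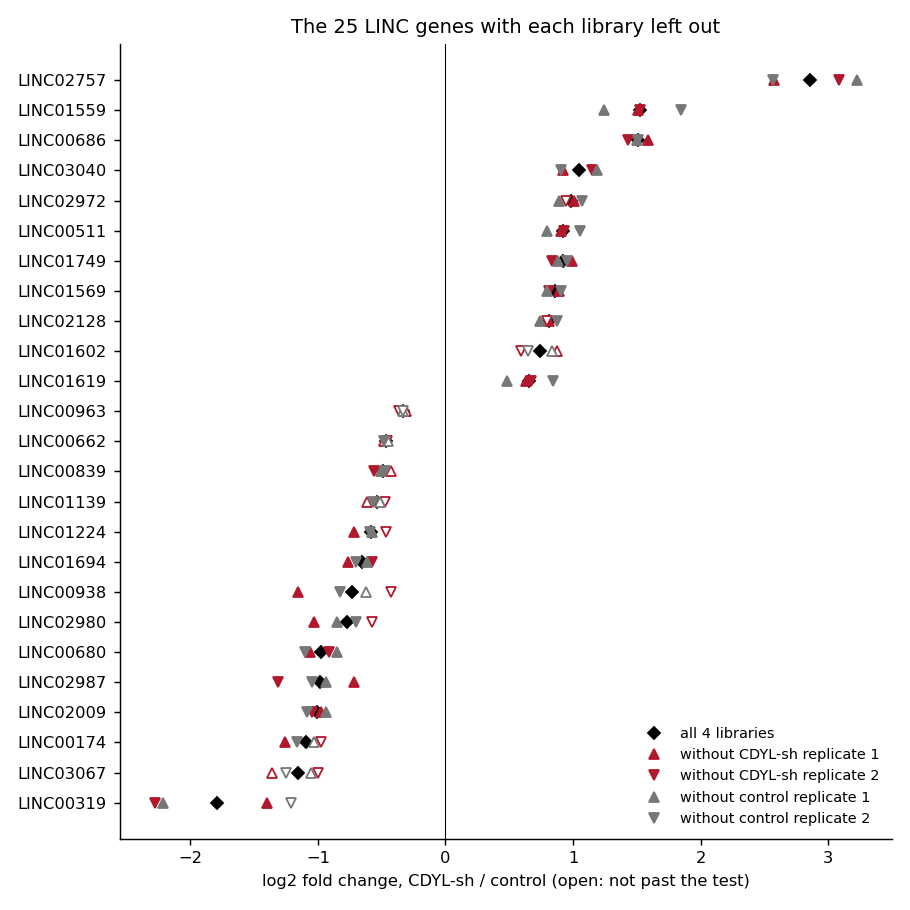
Log2 fold change (CDYL-sh over control) of the 25 called LINC genes with all 4 libraries (black) and without each library in turn, with open symbols where the gene was no longer called. The sign of every gene stayed the same, which is close to given where the groups do not overlap. Open symbols gather in the genes with small changes or low counts, 13 genes in all.

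The most abundant LINC gene, LINC00665, had 94.8 and 86.9 CPM in CDYL-sh libraries, against 108 and 104 CPM in control libraries. Although its groups did not overlap, it was not called (log2 fold change -0.23 ± 0.10, adjusted p = 0.118). LINC00958 had 57.2 and 50.9 CPM in CDYL-sh libraries, against 45.8 and 46.1 CPM in control libraries, and was not called (adjusted p = 0.138). LINC02967 was close to the threshold, with 42.4 and 38.6 CPM in CDYL-sh libraries, against 47.8 and 53.5 CPM in control libraries (adjusted p = 0.0518). LINC00960 and LINC03068 had log2 fold changes of 0.06 and -0.06 and were not called. Of the 8 most abundant LINC genes, 3 fell (LINC01694, LINC00963 and LINC00839) and none rose at the threshold. Those 8 held 32.3% and 31.4% of all LINC counts in CDYL-sh libraries, against 35.7% and 35.0% in control libraries.

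The 142 genes together took 0.118% and 0.114% of all counts in CDYL-sh libraries, against 0.122% and 0.121% in control libraries. The ratio of the means was 0.954, with an exact two-sided permutation p = 0.333, the smallest that 2 against 2 libraries allow. Summed FPKM ran the other way, with 1118 and 1135 in CDYL-sh libraries, against 1030 and 1092 in control libraries, a ratio of 1.06. The direction of the summed level therefore depended on the unit. The largest difference in FPKM was that of LINC00686, whose longest transcript has 332 bases. Its means were 59.7 FPKM in CDYL-sh and 19.3 FPKM in control libraries. In bulk libraries, fewer cells that express a gene and less RNA per cell cannot be told apart.

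Just inside the abundance minimum were LINC02289, LINC02894 and LINC01504, with summed counts of 101.87, 104 and 106. Just outside were LINC02604, LINC01194 and LINC00235, with 99, 97 and 96. For 9 of the 142 genes, 1 group alone brought the sum past the minimum, CDYL-sh in 5 and control in 4, so the direction of those 9 was partly fixed by the choice. Of the 9, 3 were called, LINC02757 higher and LINC00319 and LINC03067 lower, and among them are the highest and the lowest log2 fold change of the 142 genes. Of the other 133 genes, 22 were called (16.5%).

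Changes were also counted by base composition. Under 40% GC, 1 of 16 LINC genes was higher and 3 were lower, whereas 649 of 2568 genes of that composition were higher and 122 were lower. At 55% GC or more, 4 of 24 LINC genes were higher and 2 were lower, against 503 higher and 736 lower of 4839 genes. With GC and length included in the fit, 24 of the 25 calls were kept and 30 LINC genes were called in all. In that fit 5119 of all 16158 genes were called, against 4157 in the reported fit. Expected counts were whole in every library for 78 LINC genes, of which 13 were called, and fractional in some library for 64, of which 12 were called. These were 16.7% and 18.8%, beside 30.0% and 25.4% of all tested genes of at least 100 counts split in the same way. Among the 58 LINC genes whose span overlaps no other gene, 8 were called (13.8%), 3 higher and 5 lower, beside 28.6% of all such genes.

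Since lncRNA genes often lie beside protein-coding genes, the nearest protein-coding gene of each LINC gene was compared as well. Of 92 different neighbours that were tested, 22 were called (23.9%), 9 higher and 13 lower, beside the 25.7% of all genes. Without CDYL-sh replicate 2, 13 of them were called. For 18 of the 25 called LINC genes the neighbour was tested, and 4 of these neighbours were called, each in the direction of its LINC gene. They were LRRC32, SLC19A1, EMP1 and CYLD. LINC02757, beside LRRC32, is a gene whose direction was partly fixed by the choice of genes. Some of the neighbours that were not called went the other way from their LINC gene.

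LRRC32, which holds latent TGF-beta at the cell surface, lies 40282 bases from LINC02757 by their starts, on the same strand. It had 97.4 and 103 CPM in CDYL-sh libraries, against 60.3 and 73.0 CPM in control libraries (log2 fold change 0.59 ± 0.11, adjusted p = 0.00108). EMP1, which codes for an epithelial membrane protein, lies 190444 bases from LINC01559. It had 149 and 135 CPM in CDYL-sh libraries, against 56.8 and 71.8 CPM in control libraries (log2 fold change 1.14 ± 0.12, adjusted p = 4.65e-06). Each of these log2 fold changes was smaller than that of the LINC gene beside it, a difference that was not tested.

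SLC19A1, the reduced folate carrier, is divergent from LINC01694 at 17406 bases. It had 50.2 and 51.7 CPM in CDYL-sh libraries, against 73.3 and 76.3 CPM in control libraries (log2 fold change -0.55 ± 0.11, adjusted p = 0.00109). CYLD, a deubiquitinase that restrains NF-κB signalling, lies 97967 bases from LINC02128. It had 17.6 and 15.4 CPM in CDYL-sh libraries, against 13.3 and 9.99 CPM in control libraries (log2 fold change 0.50 ± 0.17, adjusted p = 0.0342). ARID2, beside LINC00938, went the other way from its LINC gene, with a log2 fold change of 0.34 ± 0.13 that was not called (adjusted p = 0.0567).

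Over the 97 pairs in which both genes were tested, 63 had the same sign. Pearson's r of the log2 fold changes was 0.385 and Spearman's rho was 0.336 across these pairs. The pairs share the same 4 libraries and some share a neighbour, so the values describe these libraries only. Among the pairs are LINC02757 and LINC00319, the extremes of the range, whose direction was partly fixed by the choice of genes. Within 5 kb there were 13 pairs, 7 of them of the same sign (r = 0.208).

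**Figure D5:**
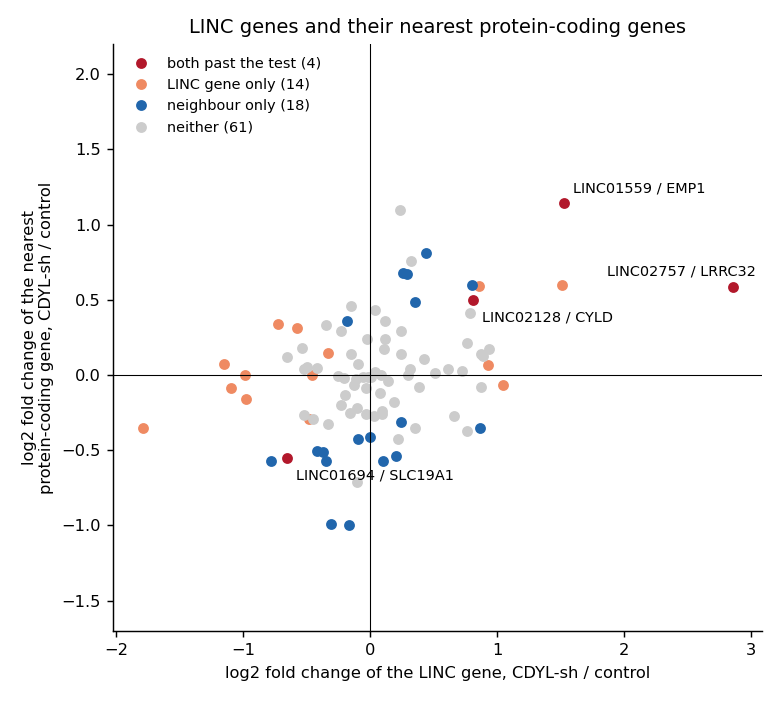
Log2 fold change (CDYL-sh over control) of the nearest protein-coding gene against that of the LINC gene, for 97 pairs, coloured by which of the pair was called. The 4 pairs with both called lie in the quadrants of equal direction, and 14 called LINC genes had a neighbour that was not called.

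The other classes of lncRNA gene, held to the same minimum of 100 counts, were counted in the same way. Of 453 genes in these lists 67 were called (14.8%), 27 higher and 40 lower. GENCODE annotated 28 of the 453 as protein-coding, and of the other 425 genes 61 were called (14.4%), whereas 29.6% of protein-coding genes of at least that count were called. Without CDYL-sh replicate 2, 27 of the 453 were called. Antisense genes had 9 higher and 21 lower of 248, divergent transcripts 8 higher and 7 lower of 102, and small nucleolar RNA host genes 1 higher and 4 lower of 22. MicroRNA host genes had 2 higher and 1 lower of 15, intronic or overlapping transcripts 1 lower of 3, and well-known lncRNAs 5 higher and 2 lower of 25. Of 72 genes with a LINC symbol among their RefSeq synonyms, 6 were higher and 7 lower, and the protein-coding genes AGO2 and CFAP298-TCP10L are among those that fell. These included UCA1, a bladder cancer associated lncRNA, with 6.86 and 7.16 CPM in CDYL-sh libraries, against 2.19 and 2.68 CPM in control libraries (adjusted p = 0.00012). NORAD, which binds PUMILIO proteins, had 60.9 and 55.7 CPM in CDYL-sh libraries, against 99.7 and 81.9 CPM in control libraries (log2 fold change -0.64 ± 0.12, adjusted p = 0.000696). MIR210HG, the host of the hypoxia-induced miR-210, had 5.93 and 8.61 CPM in CDYL-sh libraries, against 2.01 and 2.11 CPM in control libraries (log2 fold change 1.78 ± 0.25, adjusted p = 5.66e-05).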

How the data were processed

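RNA-seq was analysed from 4 libraries of Ishikawa cells, 2 CDYL-sh and 2 control. Per the study's methods, paired-end TruSeq RNA libraries were sequenced on an Illumina HiSeq and mapped with TopHat, in an orientation mode, to GRCh38.p10. RSEM and edgeR are further tools in the processing notes of the submitters. The deposited table gives for each gene and library an expected count, an estimated number of reads that need not be whole, and an FPKM that the authors normalized for length and depth. The annotation release and the use of strand in counting are not given in the sources used here.

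Expected counts were rounded, filtered with filterByExpr, scaled by TMM and tested with edgeR 4.0.16 (R 4.3.3) by the quasi-likelihood test, CDYL-sh against control with no covariate. Log2 fold changes used a prior count of 2. Each SE is the absolute log2 fold change divided by the square root of the F value of the quasi-likelihood test. Symbols were found for 98.1% of identifiers, and 7 LINC symbols had more than 1 identifier. Positions, exons and GC content were from GENCODE release 44 on GRCh38, and promoters from RefSeq on GRCh38.p14. The members, the other lists and the tests were chosen with earlier results of these data known. Genes renamed from LINC were found through RefSeq synonyms, and 37 of 40 well-known lncRNAs were found in the table.

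Named were CDYL, the called LINC genes up to 15 in each direction, the 8 most abundant, the 3 on each side of the minimum, neighbours that were within 5 kb or called, and up to 4 genes of each other list by adjusted p, of which some are given. ARID2 and BTG1 were named as neighbours within 5 kb, and NTSR1 and SCIRT for their position and SLC25A1P5 for its overlap, after values were seen. No LINC gene of the 142 had 0 counts in both libraries of a group.

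The test was checked on simulated counts, in which a far smaller share of genes was changed than the 25.7% called in the data. The recovery rates are therefore not those of the real comparison. The other genes were not matched to LINC genes in abundance (median summed count 1657 for all genes tested, 334 for LINC genes). At a 1.5-fold change it recovered 9.2% of LINC genes and 47.2% of other genes. At 2-fold it recovered 50% and 72.9%, and at 4-fold 90.2% and 93.4%. Of 667 simulated calls, 37 were of unchanged genes. Alternatives were other scalings and filters, DESeq2 1.42.0, limma 3.58.1 (voom, and log2 of FPKM plus 1 or 0.1), offsets for GC and length, a replicate block and leaving out each library.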

Additional observations from a re-analysis of the deposited data

How the results depend on the processing

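Of 25 LINC genes called, 12 passed in each of the 15 settings on counts. With limma on log2(FPKM + 1) and on log2(FPKM + 0.1), 0 LINC genes and 0 neighbours passed. At an unadjusted p under 0.05 there were 41 LINC genes and 23 neighbours under either pseudocount, and all 25 kept their sign. In the same fits 35 and 25 of all genes were called, and 1 and 1 of the other lncRNAs. Among the 58 LINC genes that overlap no other gene 8 were called (13.8%), beside 17.6% of all 142. Without each library in turn, the LINC calls ranged from 14 to 27, those over all genes from 2082 to 4006, those of other lncRNAs from 27 to 84 and those of neighbours from 13 to 24, each lowest without CDYL-sh replicate 2, the shallowest library. DESeq2 called 40 other lncRNAs, with 67 in edgeR; the cause was not tested.

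The correlation of same-numbered deviations was 0.03, so the values gave no sign that replicate numbers pair the libraries. With 4 libraries this check cannot exclude a pairing, and what the numbers stand for is not given. With a replicate block 31 of 142 LINC genes were called, among them all 25. In that fit 5393 of all 16158 genes were called, against 4157 in the reported fit. With the replicate block and offsets for GC and length, 35 LINC genes, 107 other lncRNAs and 34 neighbours were called, beside 6053 of all 16158 genes. The summed LINC level, whose alternatives were chosen after seeing the data, had a ratio of 1.06 by FPKM, and without each library its ratio ranged from 0.937 to 0.970. At the low counts of most LINC genes, small changes were hard to detect, with a median SE of 0.26 on the log2 scale.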
